A study of Mus musculus with 19 samples.

Results

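Genes of the hypoxia response and of glycolysis were followed in fibroblasts of the mouse peritoneum in normal mice and in mice with growing ovarian carcinoma. The set was a list of 35 gene symbols, and a gene was a member when its symbol stood in the deposited count table with at least 1 count. Of the 35, 34 were found among the 12799 genes of the table, and Slc16a1 was not analysed here. Mice were C57BL/6 and carried the Col1a1-YFP transgene, in which the promoter of a type I collagen gene drives a yellow reporter, and fibroblasts were sorted from peritoneum dissociated with Collagenase P, trypsin and DNase. Normal mice of that genotype had received 200 µL of PBS into the peritoneal cavity (5 libraries). Tumour-bearing mice of the same genotype had received tdTomato+ ID8 cells, a mouse ovarian carcinoma line, by the same route in 200 µL of PBS, and were sampled at day 7 (5 libraries), day 28 (5 libraries) or the end stage (4 libraries, numbered 2 to 5). The labels give no day of sampling for the end stage or for the normal mice, and no age or sex of the mice. A sort on 1 collagen reporter can take in other Col1a1-expressing cells.

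Cells sense oxygen through prolyl hydroxylases such as Egln1 and Egln3, which use oxygen to mark the HIF alpha subunits Hif1a and Epas1 for destruction. When oxygen is short, the subunits persist, pair with Arnt and bind DNA, and transcription rises of glucose transporters, of most glycolytic enzymes, of Ldha, which turns pyruvate into lactate, and of Slc16a3, the transporter that carries lactate out of the cell. Other targets lower mitochondrial work, among them Pdk1, Ndufa4l2, Bnip3 and Bnip3l. In fibroblasts of tumours, a shift to glycolysis and lactate export is a known theme. Because much of HIF control acts on the protein, transcript levels of Hif1a do not measure HIF activity.

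Each library gave counts of 3′ tags by MARS-seq, which suits low RNA input. Levels are given in CPM, the count scaled to a common library total after TMM correction. Total counts ran from 66061 to 2449339, so that the upper limit behind a count of 0 (taken as 3 counts) came to between 1.23 and 45.2 CPM. Such limits cover counting error only. All 9 fibroblast markers were present, and their summed level ran from 25970 to 55630 CPM over the 19 libraries. The 34 members together held 0.223% to 0.460% of the counts of a library, with medians of 0.267% (normal), 0.277% (day 7), 0.324% (day 28) and 0.344% (end stage). Of the 34 members, 21 had enough counts to be tested (about 32.8 CPM in at least 4 libraries) and 13 did not. In bulk RNA of this kind, a different number of cells of a type and a different amount of RNA per cell cannot be told apart.

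In end stage fibroblasts, 2 members rose against normal, the lactate exporter Slc16a3 and the mitochondrial protein gene Ndufa4l2, and no member fell. This is 2 of 21 tested members, where 0.318% of all 5980 tested genes were called higher and 0.401% in either direction (edgeR quasi-likelihood test, Benjamini-Hochberg adjusted p under 0.05). Slc16a3 had enough counts to be tested through its end stage libraries, and the members were chosen with earlier results of these data known. Set beside the share of all genes, this count is therefore no test. At day 7 and at day 28 no member was called against normal, where 0.0502% and 0% of all tested genes were called. DESeq2 and limma-voom called 0 members there as well, and at an unadjusted p under 0.05 edgeR had 0 members at day 7 and 2 at day 28, of 208 and 422 genes in all. The same 2 members were called when the 3 stages were tested jointly against normal, at adjusted p of 0.00239 for Slc16a3 and 0.0247 for Ndufa4l2 (edgeR), where 0.686% of all genes were called. The joint test contains the end stage comparison, so it is not separate evidence. The 21 members had a median log2 fold change over normal of 0.03 at day 7, 0.18 at day 28 and 0.34 in end stage libraries, and the median of all tested genes was −0.02 in each of these comparisons. Positive values were found for 11 of the 21 at day 7, 14 at day 28 and 15 in end stage libraries.

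**Figure D1:**
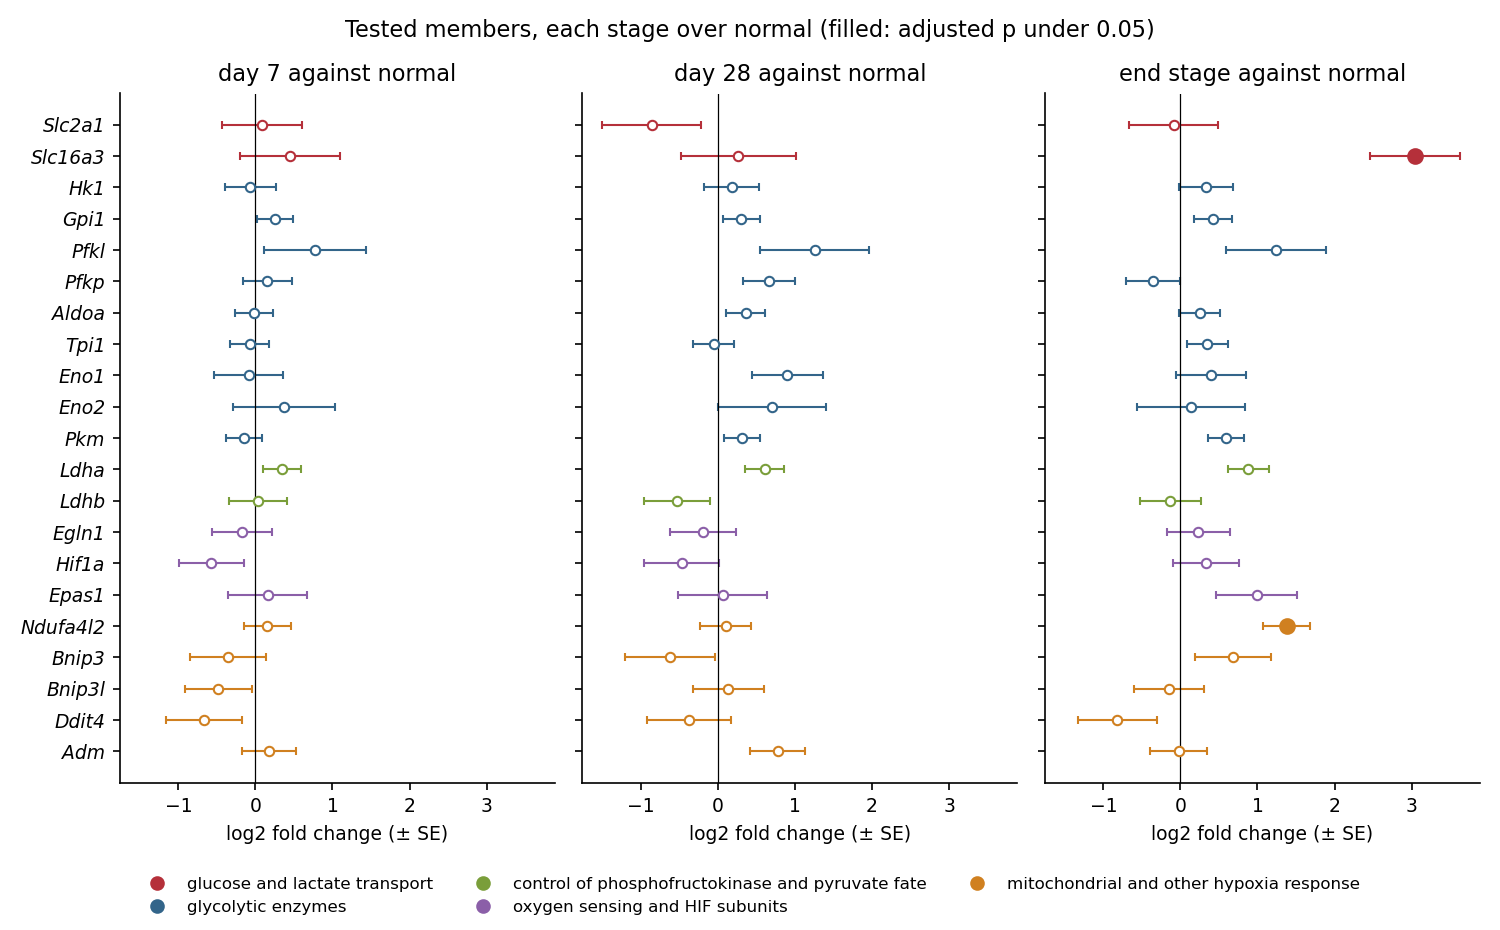
Log2 fold change over normal (x axis, ± SE) of the 21 tested members at day 7, day 28 and the end stage, coloured by role, with filled points for an adjusted p under 0.05. Slc16a3 at 3.05 and Ndufa4l2 at 1.38 stand out at the end stage, and no point is filled at day 7 or day 28.

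Slc16a3, also known as MCT4, exports lactate together with a proton. Its level was 27.3, 5.15, 11.7, 2.49 and 12.0 CPM in the 5 normal libraries and 22.2, 7.90, 6.51, 8.67 and 33.2 CPM at day 7. It was 0, 0, 5.87, 35.6 and 7.16 CPM at day 28, and 61.8, 113.9, 73.97 and 77.7 CPM in the 4 end stage libraries. Every end stage library lay above every library of the other groups, while the first 3 groups overlapped throughout. The log2 fold change of end stage over normal was 3.05 ± 0.58 (SE), about 8.26-fold, with an adjusted p of 0.00895 (edgeR). These levels rest on few counts, 256 over the 4 end stage libraries and 17 over the 5 normal ones, and a normal library held 1 to 5 counts. The 0 counts of day 28 replicates 1 and 2 allow up to 45.2 and 33.6 CPM, below the lowest end stage library. Slc16a3 passed the filter on low counts through the end stage, where 4 of 4 libraries reached the filter's level, against 0 of 5 normal libraries. It reached that level in 0 of 5 day 7 and 1 of 5 day 28 libraries. With no filter it was called as well, at an adjusted p of 0.00105 (edgeR), and without normal replicate 4 its log2 fold change of 2.76 had an adjusted p of 0.0562 (edgeR).

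The promoter of Slc16a3 is shown because it had the largest log2 fold change over normal of the 21 tested members at the end stage, with the first 2 promoters each of Ldha and Pkm, the glycolytic genes of smallest p in that comparison. The sequences are from RefSeq, build GRCm38.p6, from 250 bases before to 50 bases after the annotated start, and the counts themselves were made on GRCm39. Capitals mark each ACGTG or GCGTG on either strand (CACGT and CACGC when read on the printed strand), the core letters of the element that HIF binds. ACGTG also lies within CACGTG, the E-box of other factors, and a palindromic CACGTG counts as 2 matches. The windows lie at chr11:120948817-120949116 for Slc16a3, chr7:46845554-46845853 and chr7:46846832-46847131 for Ldha, and chr9:59656326-59656625 and chr9:59656977-59657276 for Pkm, all on the plus strand.
Slc16a3: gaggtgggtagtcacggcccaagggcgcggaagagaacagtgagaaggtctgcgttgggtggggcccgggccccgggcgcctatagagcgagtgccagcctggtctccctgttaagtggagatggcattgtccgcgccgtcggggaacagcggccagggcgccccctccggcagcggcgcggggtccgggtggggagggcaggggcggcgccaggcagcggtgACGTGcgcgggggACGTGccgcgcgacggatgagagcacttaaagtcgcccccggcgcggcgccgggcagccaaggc
Ldha, first start: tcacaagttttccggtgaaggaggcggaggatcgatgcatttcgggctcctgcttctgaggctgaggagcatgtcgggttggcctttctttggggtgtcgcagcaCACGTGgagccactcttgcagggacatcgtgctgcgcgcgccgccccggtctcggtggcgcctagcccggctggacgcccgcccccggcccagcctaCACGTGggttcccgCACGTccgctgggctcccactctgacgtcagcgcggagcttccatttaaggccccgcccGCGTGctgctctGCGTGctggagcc
Ldha, second start: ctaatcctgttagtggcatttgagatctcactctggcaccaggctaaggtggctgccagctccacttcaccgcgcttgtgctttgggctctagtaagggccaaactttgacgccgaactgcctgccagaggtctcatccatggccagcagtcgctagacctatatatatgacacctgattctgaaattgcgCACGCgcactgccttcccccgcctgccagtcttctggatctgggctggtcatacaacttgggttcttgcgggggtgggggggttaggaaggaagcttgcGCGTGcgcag
Pkm, first start: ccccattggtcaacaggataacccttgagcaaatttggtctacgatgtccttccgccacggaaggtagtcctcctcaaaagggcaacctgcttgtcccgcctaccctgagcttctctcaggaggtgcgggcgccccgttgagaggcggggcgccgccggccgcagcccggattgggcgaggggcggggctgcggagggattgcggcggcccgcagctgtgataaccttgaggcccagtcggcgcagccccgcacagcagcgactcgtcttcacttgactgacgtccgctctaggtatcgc
Pkm, second start: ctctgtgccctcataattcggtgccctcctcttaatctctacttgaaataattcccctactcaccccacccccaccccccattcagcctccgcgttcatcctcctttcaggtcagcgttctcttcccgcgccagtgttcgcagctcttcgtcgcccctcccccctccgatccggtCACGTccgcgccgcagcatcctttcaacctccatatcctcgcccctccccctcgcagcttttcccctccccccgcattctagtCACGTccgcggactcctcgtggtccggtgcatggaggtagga

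The Slc16a3 window held 2 matches, which begin 27 and 14 bases before the start. The first Ldha window held 7 matches, of which 5 begin before the start, and the second held 2. The first Pkm window held 0 and the second 2. Over the table, 14380 of 32851 promoter windows (43.8%) held at least 1 match, and among the listed genes it was 36 of 44 windows (81.8%). Counted by gene, 28 of the 31 listed genes with a window had a match, against 12628 of 27025 genes (46.7%). Many members are textbook HIF targets and entered the list as such, so this share describes the list. The other windows were not matched to those of the members in base composition, and 20.6% of all windows held 2 or more matches. A match is a stretch of letters, and binding was not measured here.

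Ndufa4l2, which lowers the activity of the respiratory chain when HIF induces it, was present in every library. Its level was 65.5, 74.6, 46.8, 62.2 and 65.7 CPM in normal and 49.9, 86.9, 47.9, 66.9 and 109.7 CPM in day 7 libraries. It was 90.5, 100.7, 46.9, 45.8 and 76.4 CPM at day 28 and 153, 235, 155 and 112 CPM at the end stage. The end stage libraries lay above all others, though the lowest of them, replicate 5 with 112 CPM, was close to the highest day 7 library. End stage over normal gave a log2 fold change of 1.38 ± 0.31, about 2.60-fold, with an adjusted p of 0.0264 (edgeR). Slc16a3 and Ndufa4l2 were the only tested members whose end stage and normal libraries did not overlap, where 1.77% of all tested genes parted upward. For Slc16a3 this share is no test, since that gene passed the filter through its end stage libraries. The call depended on single libraries, since the adjusted p lay between 0.0520 and 0.121 (edgeR) when normal replicate 1, 3, 4 or 5 or end stage replicate 3 or 4 was left out. A further fit left out the libraries under 150000 counts (day 28 replicates 1 and 2, end stage replicate 5) and thinned the others to that total. There the log2 fold change was 0.87 with an adjusted p of 0.981 (edgeR). Ndufa4l2 overlaps the oppositely directed gene Shmt2 by 32 bases, and the use of strand in counting is not given in the sources used here. Shmt2 itself had a log2 fold change of −0.19 ± 0.41 (adjusted p 0.977, edgeR). That value does not show to which gene reads of the shared bases were assigned, and this was not tested.

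**Figure D2:**
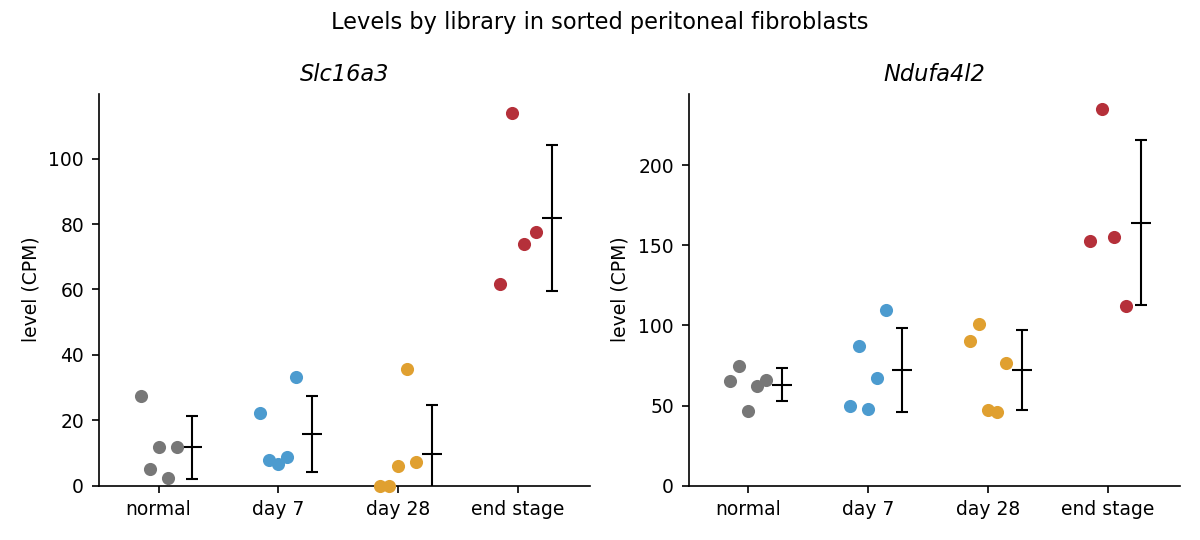
Level in CPM (y axis) of Slc16a3 and Ndufa4l2 in each library, by group from normal to end stage, with mean ± SD beside the points (bars end at 0). All end stage libraries lie above the others, at 61.8 to 113.9 CPM for Slc16a3 and 112 to 235 CPM for Ndufa4l2.

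Day 28 was the nearest earlier stage, and end stage over day 28 gave 1 call among the 21 members, again Slc16a3, where 0.385% of all tested genes were called higher and 0.401% in either direction. Its log2 fold change was 2.78 ± 0.64 with an adjusted p of 0.0382 (edgeR). Ndufa4l2 had a log2 fold change of 1.28 ± 0.33 and an adjusted p of 0.0784 (edgeR), so it did not pass. Without the 3 libraries under 150000 counts (day 28 replicates 1 and 2, end stage replicate 5), Slc16a3 had 2.46 and an adjusted p of 0.219 (edgeR), and 0 members were called. The call of Slc16a3 was also lost without day 28 replicate 1, 2, 3 or 5, or end stage replicate 3, 4 or 5, with adjusted p between 0.0675 and 0.230 (edgeR). Both genes parted the 2 stages with no overlap, where 2.26% of all tested genes did so upward. For Slc16a3, which passed the filter through the end stage, neither that share nor the share of genes called is a test. The authors' deposited table, from their own DESeq2 run, holds end stage against day 7 as well, with log2 fold changes of 2.55 for Slc16a3 (adjusted p 0.0109) and 1.25 for Ndufa4l2 (adjusted p 0.0225). For end stage against normal the authors' deposited table gives 3.01 (adjusted p 0.00236) and 1.38 (adjusted p 0.00838).

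Other cell types can carry these transcripts, since macrophages can express Slc16a3 and pericytes Ndufa4l2. The summed level of 10 macrophage markers, all 10 in the table, was 64.5 to 127 CPM in normal libraries, 48.8 to 73.3 at day 7, 11.9 to 302 at day 28 and 121, 154, 473 and 265 CPM in end stage replicates 2 to 5. None of the 10 was at 0 over the end stage, while Adgre1 and Tyrobp were at 0 over day 28. The end stage sums lay above every normal library in 3 of 4, and the 2 markers with enough counts to be tested, C1qa and C1qb, had log2 fold changes over normal of 1.83 ± 0.60 and 2.20 ± 0.83 (adjusted p 0.235 and 0.433, edgeR). The sum of 5 mural markers, all in the table, was 131 to 247 CPM in normal libraries, 107 to 223 at day 7, 139 to 454 at day 28 and 198 to 327 at the end stage. Of its 3 tested markers, Notch3 had 2.04 ± 0.55 over normal (adjusted p 0.103, edgeR), and the other two −0.17 and 0.36. Erythrocyte markers summed to 62.02 to 1575 CPM at the end stage and to 59.6 to 151 CPM in normal libraries. At day 7 they summed to 172 to 504 CPM and at day 28 to 63.8 to 378 CPM. Of 4 tested, all had positive values at the end stage over normal, and Hbb-bs was called (3.00 ± 0.60, adjusted p 0.0264, edgeR). Mesothelial markers, 12 of 13 in the table, summed to 288 to 636 CPM at the end stage and to 591 to 1441 CPM in normal libraries, and 7 of 8 tested had negative values with 0 called. Adipocyte markers, 2 of 6 in the table, summed to 26.5 to 132 CPM at the end stage and to 10.8 to 52.5 CPM in normal libraries, and Fabp4 had 1.60 ± 0.46 over normal (adjusted p 0.135, edgeR). Epithelial tumour markers, 2 of 6 in the table, summed to 25.3 to 106 CPM at the end stage and 29.8 to 65.65 CPM in normal libraries. For endothelial markers, 7 of 8 in the table, it was 83.7 to 194.7 CPM and 86.0 to 239.6 CPM. The 1 of 5 B cell markers in the table was at 0 to 46.95 CPM and 0 to 6.565 CPM. Markers of T and NK cells were not in the table, and 1 of 6 neutrophil markers was. The part of these cells in the rise of either gene was not tested.

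**Figure D3:**
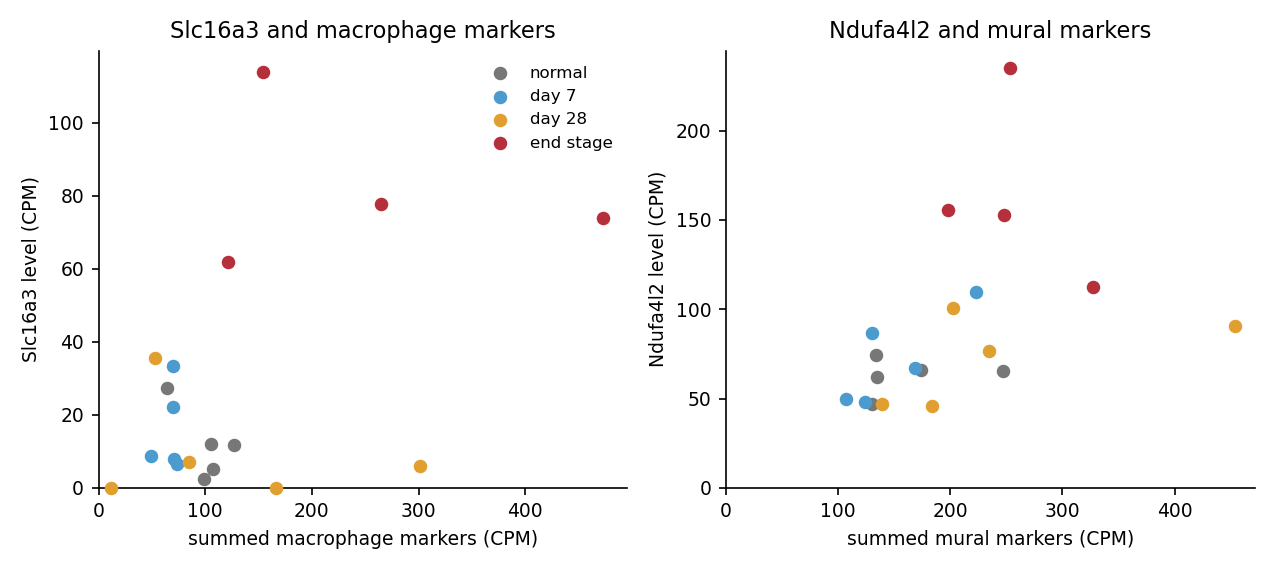
Left, Slc16a3 level against the summed macrophage markers, and right, Ndufa4l2 level against the summed mural markers, 1 point per library, coloured by group, both axes in CPM. End stage points lie highest in both panels, over macrophage sums of 121 to 473 and mural sums of 198 to 327.

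Of the glucose transporters, Slc2a1 was tested and was not called in any comparison. Slc2a1, the ubiquitous glucose transporter known as GLUT1, averaged 26.3 ± 11.4 CPM in normal, 25.3 ± 10.3 at day 7, 9.25 ± 13.3 at day 28 and 21.1 ± 9.47 CPM at the end stage (SD, n = 5, 5, 5 and 4). Its log2 fold change of end stage over normal was −0.09 ± 0.57, and at day 28, where 3 of 5 libraries had 0 counts, −0.86 ± 0.64. Slc2a3, the high-affinity glucose transporter GLUT3, stayed below the filter and ranged from 0 to 6.95 CPM at the end stage and from 0 to 31.2 CPM in normal libraries.

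Most tested glycolytic enzymes had positive end stage values, and none passed the test. Of the 9 tested, out of 15 listed, 8 had a positive log2 fold change over normal, with a median of 0.35 and 0 called. Among all tested genes 48.01% were positive. At day 28 it was also 8 of 9 over normal, with a median of 0.36 (all genes 48.11%). At day 7 it was 4 of 9 with a median of −0.02 (all genes 47.89%). Against day 28, the end stage had 4 of 9 positive and a median of −0.02 (all genes 49.55%). The enzymes were measured in the same libraries, so their directions are not independent and these counts are no test.

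Pkm encodes the pyruvate kinase that ends glycolysis. Its level was 524, 322, 449, 363 and 317 CPM in normal and 310.2, 411, 288, 263 and 512 CPM in day 7 libraries. It was 407, 515, 563, 479 and 477 CPM at day 28 and 618, 766, 572 and 397 CPM at the end stage. Of the end stage libraries 3 lay above all normal ones, and replicate 5 lay within their range. Over normal, the end stage log2 fold change was 0.59 ± 0.24 with an adjusted p of 0.474 (edgeR), and that of day 28 over day 7 was 0.46 ± 0.23.

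Phosphofructokinase, which commits glucose to glycolysis, is built from the subunits Pfkl, Pfkm and Pfkp. Pfkl had 5.45, 10.3, 31.2, 7.47 and 17.9 CPM in normal and 88.6, 19.7, 9.47, 8.67 and 23.3 CPM in day 7 libraries. It had 121, 55.9, 17.6, 10.2 and 19.1 CPM at day 28 and 35.8, 26.7, 40.9 and 25.9 CPM at the end stage. The highest values stood in replicate 1 of day 7 and of day 28, and the end stage libraries lay close together. Its log2 fold change of end stage over normal was 1.24 ± 0.65 with an adjusted p of 0.752 (edgeR); at day 28 it was 1.26 ± 0.71 and at day 7 it was 0.77 ± 0.66. The day 28 value was 0.66 without day 28 replicate 1 and 0.20 without the 3 libraries under 150000 counts.

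Pfkp, the platelet-type subunit, followed another course. It had 38.2, 81.0, 93.7, 52.3 and 68.7 CPM in normal and 22.2, 79.0, 98.8, 70.6 and 93.1 CPM in day 7 libraries. It had 106, 100.7, 93.8, 122 and 112 CPM at day 28 and 32.5, 58.2, 71.1 and 34.5 CPM at the end stage. Day 28 stood above normal in every library, narrowly at 93.8 against 93.7 CPM, and above every end stage library. Among the members Pfkp alone parted day 28 upward from normal, where 0.268% of all tested genes did, and it alone parted the end stage downward from day 28, where 0.853% did. Neither difference was called: the log2 fold change was 0.66 ± 0.34 for day 28 over normal (adjusted p 0.699) and −1.02 ± 0.36 for end stage over day 28 (adjusted p 0.286, both edgeR). Pfkp overlaps the oppositely directed gene Pitrm1. Pfkm, the muscle-type subunit, stayed below the filter, at 8.63 to 33.9 CPM in end stage and 24.9 to 43.6 CPM in normal libraries, while skeletal muscle markers summed to 88.4 to 340 CPM at the end stage and 63.8 to 408 CPM in normal libraries.

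Eno1 and Aldoa had their highest group means at day 28. Eno1, an enolase, had 104, 25.7, 46.8, 19.9 and 41.8 CPM in normal and 66.5, 51.3, 24.3, 30.96 and 49.8 CPM in day 7 libraries. It had 60.3, 33.6, 135, 122 and 45.4 CPM at day 28 and 26.02, 84.9, 72.7 and 25.9 CPM at the end stage. All 4 groups overlapped. Day 28 over day 7 gave a log2 fold change of 0.99 ± 0.45 with an adjusted p of 0.547 (edgeR), the smallest of the 21 in that comparison, in which 0 members and 0% of all genes were called.

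Aldoa, an aldolase that splits the 6-carbon sugar, had 693, 391, 644, 436 and 547 CPM in normal and 620.5, 486, 378, 421 and 774 CPM in day 7 libraries. It had 784, 436, 938, 764 and 556 CPM at day 28 and 657, 936, 511 and 457 CPM at the end stage. The groups overlapped, and the log2 fold change of day 28 over day 7 was 0.38 ± 0.25, that of end stage over normal 0.25 ± 0.26. Hk1, a hexokinase, Gpi1, the glucose phosphate isomerase, Tpi1, the triose phosphate isomerase, and Eno2, the neuronal enolase, had end stage log2 fold changes over normal between 0.14 (Eno2) and 0.43 (Gpi1), with adjusted p of at least 0.790 (edgeR). The 3′ ends of Aldoa, Eno1, Pkm, Gpi1, Tpi1, Ldha, Ldhb and Bnip3 match stretches of other annotated genes, many of them pseudogenes. The longest match of each ran from 310 bases (Tpi1) to 500 bases, and Eno2 shares a stretch of up to 66 bases. The treatment of such reads is not given in the sources used here, and the levels of these genes are uncertain to that extent.

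Ldha, the lactate-forming subunit of lactate dehydrogenase, had the next smallest p at the end stage. It had 191, 192, 359, 326 and 260.0 CPM in normal and 504, 284, 294, 334 and 289 CPM in day 7 libraries. It had 256, 414, 439.9, 596 and 306 CPM at day 28 and 527, 352, 597 and 483 CPM at the end stage. Of the 4 end stage libraries 3 lay above all normal ones, and replicate 3 lay just below the highest of them. Its log2 fold change over normal was 0.35 ± 0.25 (day 7), 0.61 ± 0.26 (day 28) and 0.88 ± 0.26 (end stage), with adjusted p of 0.999, 0.663 and 0.157 (edgeR). None passed the test.

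**Figure D4:**
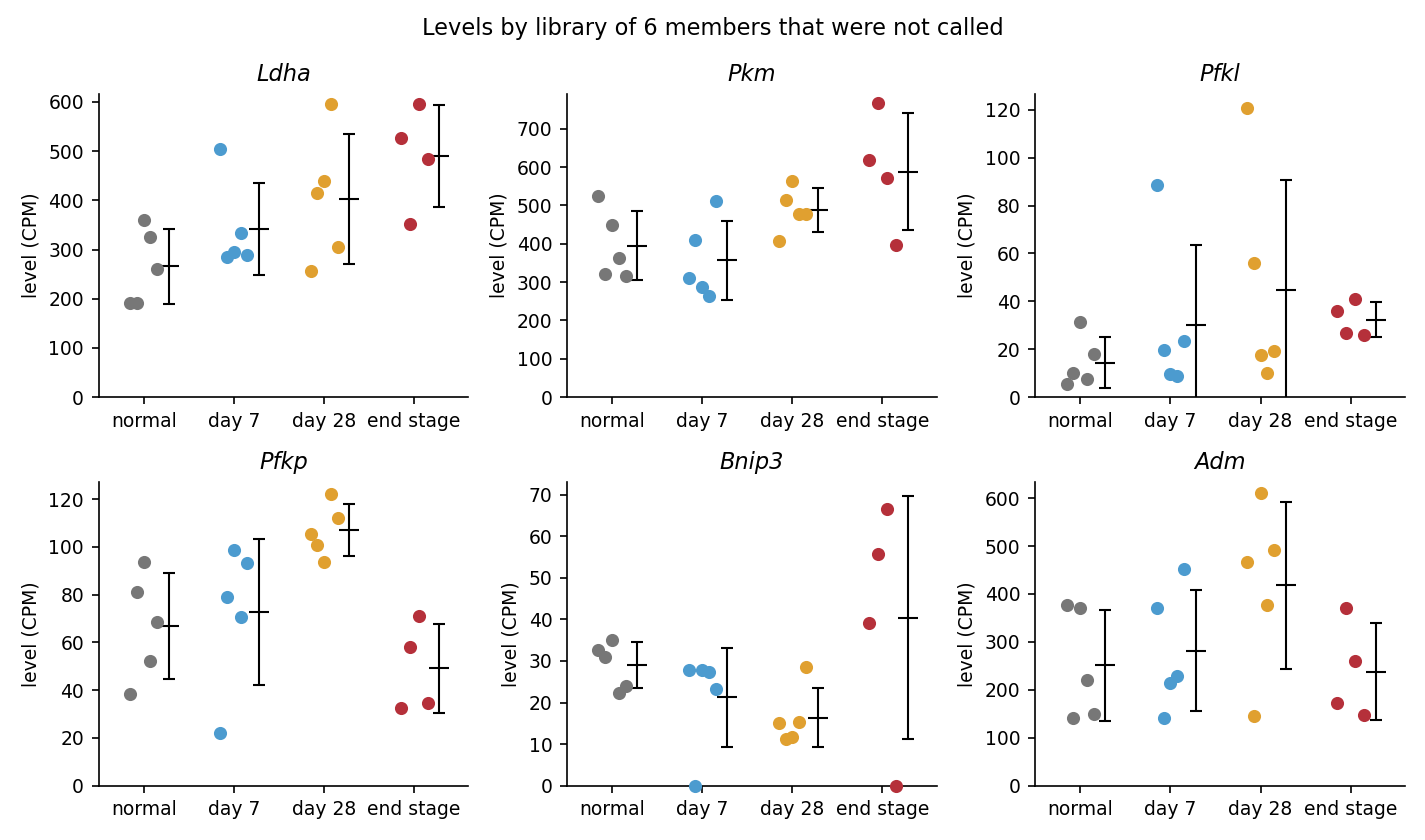
Level in CPM (y axis) of Ldha, Pkm, Pfkl, Pfkp, Bnip3 and Adm in each library, by group from normal to end stage, with mean ± SD beside the points (bars end at 0). The groups overlap except where Pfkp at day 28 (93.8 to 122 CPM) lies above end stage (32.5 to 71.1 CPM) and, barely, normal.

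Lactate dehydrogenase is built from Ldha and Ldhb, and the share of Ldha among their joint counts needs no scaling between libraries. Ldhb, the subunit that favours lactate use, averaged 50.4 ± 17.5 CPM at the end stage and 60.2 ± 35.5 CPM in normal libraries (SD, n = 4 and 5), with a log2 fold change of −0.13 ± 0.40. Ldha made up 61.4% to 89.7% of the joint counts in normal libraries (median 86.8%), 75% to 89.6% at day 7 (median 87.1%), 86.2% to 95.9% at day 28 (median 89.5%) and 85.3% to 94.9% at the end stage (median 90.7%). The groups overlapped, and the shares of normal replicate 1, 61.4% (95% Wilson interval 48.4% to 72.9%), and of normal replicate 2, 76.4% (70.0% to 81.8%), were the low ones of their group. Ldha was the major form in every library.

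**Figure D5:**
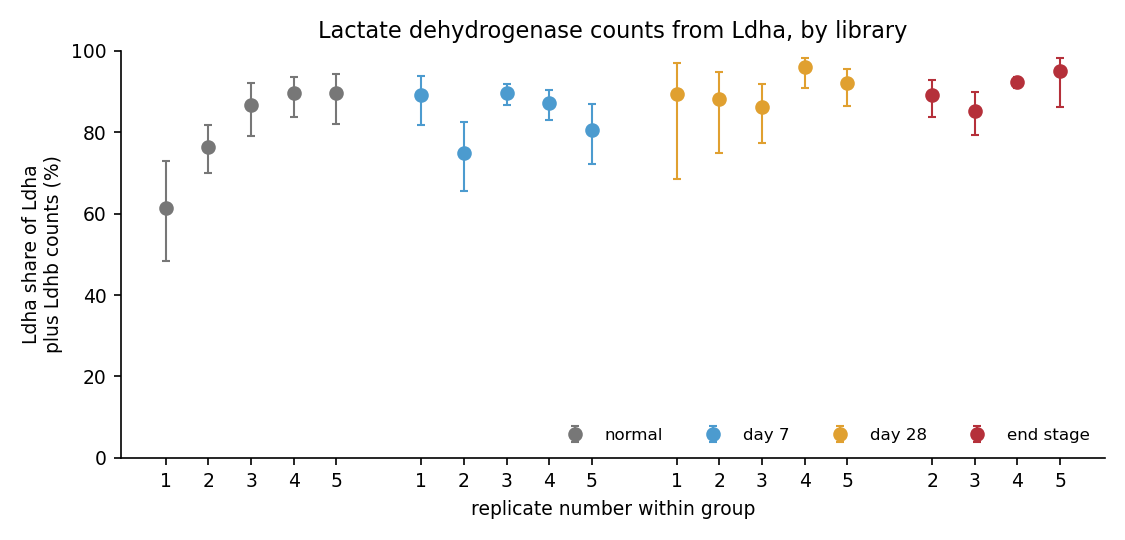
Share of Ldha in the joint counts of Ldha and Ldhb (y axis, %) for each library, by replicate number (x axis) and group, with 95% Wilson intervals that cover counting error only. All libraries lie above 60%, and normal replicate 1 at 61.4% is the lowest.

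The controllers around these enzymes were scarce. Pfkfb3 and Pfkfb4, which make the activator of phosphofructokinase, and Pdk1, which shuts pyruvate out of the mitochondrion, stayed below the filter. Pdk1 was at 14.6 to 26.02 CPM in end stage and 7.81 to 30.9 CPM in normal libraries, Pfkfb3 at 9.70 to 25.9 CPM in end stage and 0 to 19.9 CPM in normal libraries, and Pfkfb4 at 7.27 to 25.9 CPM in end stage and 0 to 32.9 CPM in normal libraries. In the fit without a filter the 3 had end stage log2 fold changes over normal of 0.23 (Pdk1), 0.25 (Pfkfb3) and 0.16 (Pfkfb4), with adjusted p of at least 0.994 (edgeR).

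Of the oxygen sensors and HIF subunits, all 3 tested genes had positive end stage values over normal, and 0 were called. Hif1a, the alpha subunit of HIF1, had 21.8, 36.02, 15.6, 47.3 and 50.8 CPM in normal and 11.1, 15.8, 34.3, 30.96 and 13.3 CPM in day 7 libraries. It had 0, 33.6, 35.2, 30.5 and 21.5 CPM at day 28 and 29.3, 41.2, 51.9 and 60.4 CPM at the end stage. The log2 fold change over normal was −0.57 ± 0.42 at day 7 and 0.33 ± 0.43 at the end stage, and the groups overlapped. Epas1, the alpha subunit of HIF2, averaged 49.8 ± 9.76 CPM at the end stage and 23.6 ± 22.7 CPM in normal libraries (SD, n = 4 and 5), with a log2 fold change of 0.99 ± 0.53 and an adjusted p of 0.752 (edgeR). Egln1, the main prolyl hydroxylase, averaged 59.6 ± 12.3 CPM at the end stage and 51.2 ± 11.9 CPM in normal libraries, a log2 fold change of 0.23 ± 0.41. Hif1a overlaps the oppositely directed gene Gm15283.

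Bnip3 and Bnip3l mark mitochondria for removal by autophagy. Bnip3 had 32.7, 30.9, 35.1, 22.4 and 23.9 CPM in normal and 27.7, 0, 27.8, 27.2 and 23.3 CPM in day 7 libraries. It had 15.1, 11.2, 11.7, 15.3 and 28.6 CPM at day 28 and 39.03, 55.8, 66.6 and 0 CPM at the end stage. End stage replicates 2, 3 and 4 lay above all other libraries, and the shallow replicate 5 had no count, which allows up to 25.9 CPM. The log2 fold change of end stage over day 28 was 1.31 ± 0.57 with an adjusted p of 0.433 (edgeR), and over normal it was 0.69 ± 0.49.

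Bnip3l had 81.8, 52.7, 39.04, 34.8 and 50.8 CPM in normal and 16.6, 15.8, 49.1, 34.7 and 53.2 CPM in day 7 libraries. It had 90.5, 0, 87.98, 45.8 and 54.9 CPM at day 28 and 74.8, 36.4, 49.04 and 8.63 CPM at the end stage. The groups overlapped, with a log2 fold change of −0.48 ± 0.43 at day 7 and −0.15 ± 0.46 at the end stage over normal.

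Adm encodes the secreted vasodilator adrenomedullin. It had 376, 140.2, 371, 221 and 149 CPM in normal and 371, 142, 214, 229 and 452 CPM in day 7 libraries. It had 467, 145, 610.0, 377 and 492 CPM at day 28 and 172, 371, 260.3 and 147 CPM at the end stage. Day 28 held the highest libraries, and day 28 replicate 2 was among the lowest. On the log2 scale, the fold change was 0.77 ± 0.36 for day 28 over normal (adjusted p 0.699) and −0.80 ± 0.38 for end stage over day 28 (adjusted p 0.505, both edgeR).

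Ddit4, an inhibitor of mTORC1 that responds to hypoxia and other stress, had 38.2, 41.2, 58.6, 17.4 and 38.8 CPM in normal and 60.9, 7.90, 16.0, 27.2 and 19.9 CPM in day 7 libraries. It had 60.3, 22.4, 46.9, 20.4 and 16.7 CPM at day 28 and 6.51, 17.0, 37.6 and 8.63 CPM at the end stage. The groups overlapped, with log2 fold changes over normal of −0.66 ± 0.49 at day 7 and −0.82 ± 0.51 at the end stage, neither called. Genes that respond to tissue dissociation, the immediate-early list of 18, summed to 23230 to 35410 CPM at the end stage and to 32060 to 48790 in normal libraries; their part in the Ddit4 values was not tested.

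The remaining members below the filter were followed in the fit that drops it, in which Slc16a3 and Ndufa4l2 were the 2 calls against normal. Egln3, the HIF-induced prolyl hydroxylase, had 62 counts (25.3 CPM) in end stage replicate 4 and 0 in the other end stage libraries, against 2 counts over the 5 normal libraries. Its log2 fold change was 3.08 ± 1.09 with an adjusted p of 0.320 (edgeR). Ankrd37, a small HIF target, was at 4.85 to 13.9 CPM in end stage and 0 to 2.99 CPM in normal libraries, so these did not overlap, with 40 and 4 counts in all and an adjusted p of 0.565 (edgeR). Pgam1, a phosphoglycerate mutase, was at 24.2 to 31.5 CPM in end stage and 7.47 to 23.9 CPM in normal libraries, likewise without overlap, with a log2 fold change of 0.62 ± 0.59 and an adjusted p of 0.978 (edgeR). Of the 13 members below the filter these 2 parted upward, where 53 of all 6819 genes below it did (0.777%), and they were named after their levels were seen. Those 6819 genes include 22 with no count in any library and were not matched to the members by count.

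Gapdh, the glyceraldehyde phosphate dehydrogenase often used as a reference gene, had 0, 14, 1, 3 and 9 counts in normal and 3, 91, 336, 11 and 1 in day 7 libraries. Day 28 libraries had 1, 1, 0, 2 and 2 counts, and end stage replicates 2 to 5 had 3, 295, 60 and 1. As levels, end stage replicate 3 at 715 CPM and day 7 replicates 2 and 3 at 359 and 199 CPM stood apart, and the other libraries were at or below 26.9 CPM. In the fit without a filter its log2 fold change of end stage over normal was 3.91 ± 1.39, with an adjusted p of 0.460 (edgeR). The 3′ end of Gapdh shares a stretch of at least 60 bases, at 95% identity or more, with 98 other annotated genes, and its counts are uncertain. Pgk1, the phosphoglycerate kinase, shares a stretch of up to 82 bases of its 3′ end with 5 annotated genes and averaged 5.51 ± 2.66 CPM at the end stage and 1.86 ± 2.61 CPM in normal libraries (SD, n = 4 and 5; 15 and 4 counts in all). Hk2, the inducible hexokinase, averaged 5.10 ± 6.56 CPM at the end stage and 5.00 ± 6.34 CPM in normal libraries. Aldoc, the brain aldolase, averaged 0.715 ± 1.43 CPM at the end stage, where replicate 4 held all 7 counts, and 1.59 ± 2.29 CPM in normal libraries, with 3 counts. Higd1a, a mitochondrial HIF target whose 3′ end matches Gm9790 over 288 bases, was at 13.0 to 40.9 CPM at the end stage and 4.98 to 38.8 CPM in normal libraries.

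Lists of neighbouring pathways gave no call of end stage against normal with edgeR, where 1 of 8 other HIF pathway components, 4 of 20 other hypoxia-induced genes, 1 of 3 other glycolytic and gluconeogenic enzymes, 1 of 6 genes of pyruvate entry and 1 of 7 of the pentose phosphate pathway had an unadjusted p under 0.05, against 421 of all 5980 tested genes (7.04%). Among other components of the HIF pathway 3 of 8 tested genes had a positive log2 fold change, and the smallest p belonged to Elob, of the ubiquitin ligase complex that destroys HIF, at 0.49 ± 0.24 (adjusted p 0.704), and to Vhl, the substrate receptor of that ligase, at 0.34 ± 0.50 (adjusted p 0.977, both edgeR). Of the other hypoxia-induced genes 10 of 20 were positive. Lox, which crosslinks collagen, averaged 561.9 ± 312 CPM at the end stage and 262 ± 34.2 CPM in normal libraries (SD, n = 4 and 5), with a log2 fold change of 1.12 ± 0.27 and an adjusted p of 0.0541 (edgeR). DESeq2 called Lox in this comparison, at 1.11 with an adjusted p of 0.0193, as did edgeR with no filter (adjusted p 0.0294) and without the shallow libraries (0.0280), and limma-voom called none of these lists' genes. Over all alternatives the adjusted p of Lox lay between 0.0193 and 0.604, the highest without end stage replicate 4, where the log2 fold change was 0.66. Against day 28, at 132 ± 42.3 CPM (n = 5), Lox rose by 2.16 ± 0.30 on the log2 scale, with an adjusted p of 0.000126 (edgeR), the 1 call among these lists in that comparison. Hmox1, which degrades heme, had 1.55 ± 0.56 over normal (adjusted p 0.376, edgeR).

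Around glycolysis, 5 of 7 genes of the pentose phosphate pathway were positive, led by H6pd, its endoplasmic reticulum dehydrogenase, at 0.89 ± 0.30 (adjusted p 0.254), and Tkt, the transketolase, at 0.46 ± 0.25 (adjusted p 0.760, both edgeR). Of genes for pyruvate entry into mitochondria 4 of 6 were positive, and the smallest p were those of Pdha1 and Pdhb, subunits of pyruvate dehydrogenase, at −0.84 ± 0.39 and −0.34 ± 0.43. Of other glycolytic and gluconeogenic enzymes 2 of 3 were positive. Bpgm, which makes the regulator of haemoglobin's oxygen affinity and is abundant in erythrocytes, had 1.74 ± 0.50 (adjusted p 0.151, edgeR), and Pck2, the mitochondrial carboxykinase, −0.27 ± 0.38. At day 7 the erythrocyte marker sums given above exceeded every normal library, and 0 of these 3 enzymes had a positive value over normal. Those sums reached 504 CPM at day 7 and 1575 CPM at the end stage, so the day 7 values cannot decide the source of the Bpgm value. The part of erythrocytes in the Bpgm value was not tested.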

How the data were processed

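RNA of sorted fibroblasts from 19 mice was sequenced by MARS-seq, per the labels' protocols, with RNA of a RIN above 8. Raw counts, as deposited, were used for every level and test. The deposited normalized signal equals these counts divided by 1 size factor per library and was used for that check alone. The authors' deposited log2 fold changes and p-values come from 6 pairwise comparisons, and other deposited values are the authors' thresholds. The submitters' processing notes name DESeq2 and GRCm39. Not given in the sources used here are the aligner, the counter, the annotation, strand use and the handling of molecular identifiers.

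After filterByExpr (minimum count 10), 5980 of 12799 genes were tested with edgeR 4.0.16 in R 4.3.3. A single quasi-likelihood model held all 4 groups and no covariate, with TMM scaling and robust dispersion, and F test p-values were adjusted by Benjamini-Hochberg over all tested genes (threshold 0.05). The 5 comparisons and the joint test of the stages were all made in this fit. Marker sums are CPM on unscaled library totals. The fit was tested on simulated data. Alternatives were DESeq2 1.42.0, limma-voom (limma 3.58.1) with quality weights, other scalings and filters, a replicate number block, the 2 groups alone, thinning, leaving out shallow libraries and leaving out each library in turn. Thinning was to 150000 counts, after the 3 libraries below that total were left out. Named were the called members and the 5 of smallest p in each comparison, and of the other lists the called genes and the 2 of smallest p. The members and lists were chosen with earlier results of these data known. The last 500 bases of each member were matched to any part of other genes' transcripts, from 60 bases on at 95% identity. Promoters were taken from RefSeq tables, where Ndufa4l2, Epas1, Bnip3l and Slc2a3 have no entry.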

Additional observations from a re-analysis of the deposited data

Results flagged for a closer look

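Levels in CPM of 16 members were checked in each of 4 groups for a highest or lowest library far from its neighbours. Of 64 groups, 9 held such a library. Chance gives about 1 in 20 for normally distributed values, but counts this low are not normally distributed. The 16 were also a chosen part of the 34 members, with Egln3, Gapdh and Hk2 from below the filter, so that rate is no yardstick here. A group with counts in 1 library alone meets the criterion by construction, as for Egln3 and Hk2 here. Bnip3 was at 0 in day 7 replicate 2, with the next library at 23.3, and at 28.6 in day 28 replicate 5, with the next at 15.3. Egln3 was at 25.3 in end stage replicate 4, with 0 in the others, and at 2.57 in normal replicate 2, with 0 in the others. Gapdh was at 715 in end stage replicate 3, with the next library at 24.5. Hk2 was at 9.55 in day 28 replicate 5, with 0 in the other 4. In day 7 replicate 1, Ldha was at 504, with the next library at 334, and Pfkl at 88.6, with the next at 23.3. Slc16a3 was at 35.6 in day 28 replicate 4, with the next at 7.16. The Slc16a3 change over normal differed between end stage and day 28, by the direct test of those stages, by 2.78 on the log2 scale.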

How the results depend on the processing

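Of 798 recomputed values for 29 gene results, 769 kept their direction and side of the threshold, 16 lost the call, 1 gained it and 12 changed sign. The count of members higher at the end stage against normal, 2 here, was 1 with DESeq2 (which gave Slc16a3 no adjusted p), 1 with a stricter filter, 0 after thinning (the last 2 do not test Slc16a3) and 0 to 2 with 1 library left out, 0 without normal replicate 4. Against day 28, 1 here, it was 2 with DESeq2, 0 with a stricter filter, 0 after thinning, 0 without the shallow libraries and 0 to 1 with 1 library left out. For the stages jointly, 2 here, it was 1 with a stricter filter, 0 after thinning and 1 to 2 with 1 library left out, 1 without end stage replicate 3 or 4. No other count of members changed. Changes of sign all lay in uncalled comparisons with normal. At day 7, Ndufa4l2 was at −0.10 with limma-voom and −0.24 after thinning, Pfkl at −0.20 with limma-voom, and leaving out 1 library gave −0.037 to 0.30 for Ndufa4l2, −0.050 to 1.16 for Pfkl and −0.057 to 0.88 for Slc16a3. At day 28, Ndufa4l2 was at −0.48 after thinning and −0.12 without the shallow libraries, with −0.021 to 0.23 on leaving out 1 library and −0.88 to 0.70 for Slc16a3. The cause of these shifts was not tested. The labels give libraries of the same replicate number nothing in common but that number, and shared handling was not tested. The median correlation of their deviations was 0.06 over 27 pairs, and −0.04 over the 108 pairs of other numbers. With the replicate number as a block, Slc16a3 had 3.26 and an adjusted p of 0.00443 (edgeR) at the end stage. The member counts were then 2 against normal and 1 against day 28. Depth limits the low members, since a count of 0 allows up to 45.2 CPM in the shallowest library.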
